A study of Drosophila melanogaster with 4 samples.

Results

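Glutathione S-transferases couple the tripeptide glutathione to reactive compounds, and several classes also carry out peroxidase, reductase or isomerase reactions on the body's own metabolites. The delta and epsilon classes (symbols beginning *GstD* and *GstE*) are the large insect groups known for detoxification of insecticides and of products of lipid peroxidation. The omega class (*GstO*) has reductase activity, and an omega enzyme outside the set described here, sepia (*se*), makes a precursor of the red eye pigments. The sigma (*GstS1*), theta (*GstT*) and zeta (*GstZ*) classes are small in flies. *GstS1* is known for conjugation of the lipid peroxidation product 4-hydroxynonenal, and zeta enzymes act in tyrosine breakdown. *GstE14*, also called *noppera-bo*, is needed for steroid hormone synthesis in the larval prothoracic gland.

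The genes were taken by symbol, as every symbol that starts with Gst followed by D, E, O, S, T or Z. This gave 35 of the 13964 genes counted, with 11 delta, 14 epsilon, 3 omega, 1 sigma, 4 theta and 2 zeta genes. All 35 were found in the annotation of the BDGP6 assembly, which is dm6. *GstD1* to *GstD11* lie side by side on chromosome arm 3R between positions 12364776 and 12385624, and *GstE1* to *GstE10* on 2R between 18396638 and 18409835. *GstE11*, *GstE12*, *GstE13* and *GstE14* lie apart on 2R, starting at 18503608, 24766718, 9122125 and 13239729. The omega genes are neighbours on 3L, the zeta genes are neighbours on 3R, *GstT1* and *GstT2* are neighbours on 2R, *GstT3* and *GstT4* lie apart on the X, and *GstS1* is on 2R. The delta and epsilon neighbours are related copies, and splitting of reads among them was not tested. 7 of the 35 overlap a gene on the other strand, among them *GstO2*, which overlaps *se*, and *GstE9*, which overlaps *imd*. How the counting used strand is not given in the sources used here, so reads of such pairs cannot be told apart with certainty.

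Single cells were collected from dissociated adult compound eyes of *Canton-S* flies, a wild-type laboratory strain, in 4 libraries. 1 library came from females aged 1 day after eclosion and 3 from males, aged 1, 3 or 7 days. All flies were raised at 25 °C, 40 eyes were pooled per dissociation, and every dissociation held Actinomycin D, which blocks transcription. After the limits on genes and mitochondrial share, 34733 of 40076 barcodes were kept. The kept cells had a median of 6497 unique molecular identifiers (UMIs, 1 per captured transcript) in females, and of 4059, 3501.5 and 1999 in 1-, 3- and 7-day males. Cells were clustered without the *Gst* genes and named from marker genes, which placed 29098 cells in 8 classes. These were glia, primary pigment cells, cone cells, secondary and tertiary pigment cells, neurons, and the photoreceptors R7, R8 and R1-6. Another 3136 cells sat in clusters with markers of several classes and 2499 in unnamed clusters, and both were left out. The female library gave no primary pigment or cone class and held 1760 of the unnamed cells. Pairs of libraries shared 142 barcodes in all, of which 104 were kept. The median depth per cell also differed between classes, at 1248 to 5911.5 UMIs in secondary and tertiary pigment cells and 1921 to 11260.5 UMIs in R1-6.

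Levels are given as CPM, the UMIs of a gene over all UMIs of a class in a library, scaled to a common total, which with 3′ end counting does not depend on gene length. Secondary and tertiary pigment cells held by far the most *Gst* message. The summed level of the 35 genes was 18160 CPM in the female library and 17840, 20390 and 17780 CPM in the 1-, 3- and 7-day male libraries. Glia came next at 4703 CPM in females and 4709, 5073 and 5559 CPM in males. The pigment cell sum was mostly *GstE12*, and the order did not hold for every family. The delta genes summed to 922.8, 944.7 and 1658 CPM in glia of 1-, 3- and 7-day males. In pigment cells of males they summed to 512.7, 689.9 and 953.9 CPM. In females their sum was lower in glia, at 622.4 against 781.3 CPM. In males, primary pigment cells held 2117 to 3093 CPM and cone cells 1931 to 1974 CPM. Neurons held 430.1 CPM in females and 744.2 to 916.8 CPM in males, and R7, R8 and R1-6 held between 561.6 and 802.6 CPM in every library. The cone class rests on 20 to 29 cells per library and was given levels only.

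**Figure D1:**
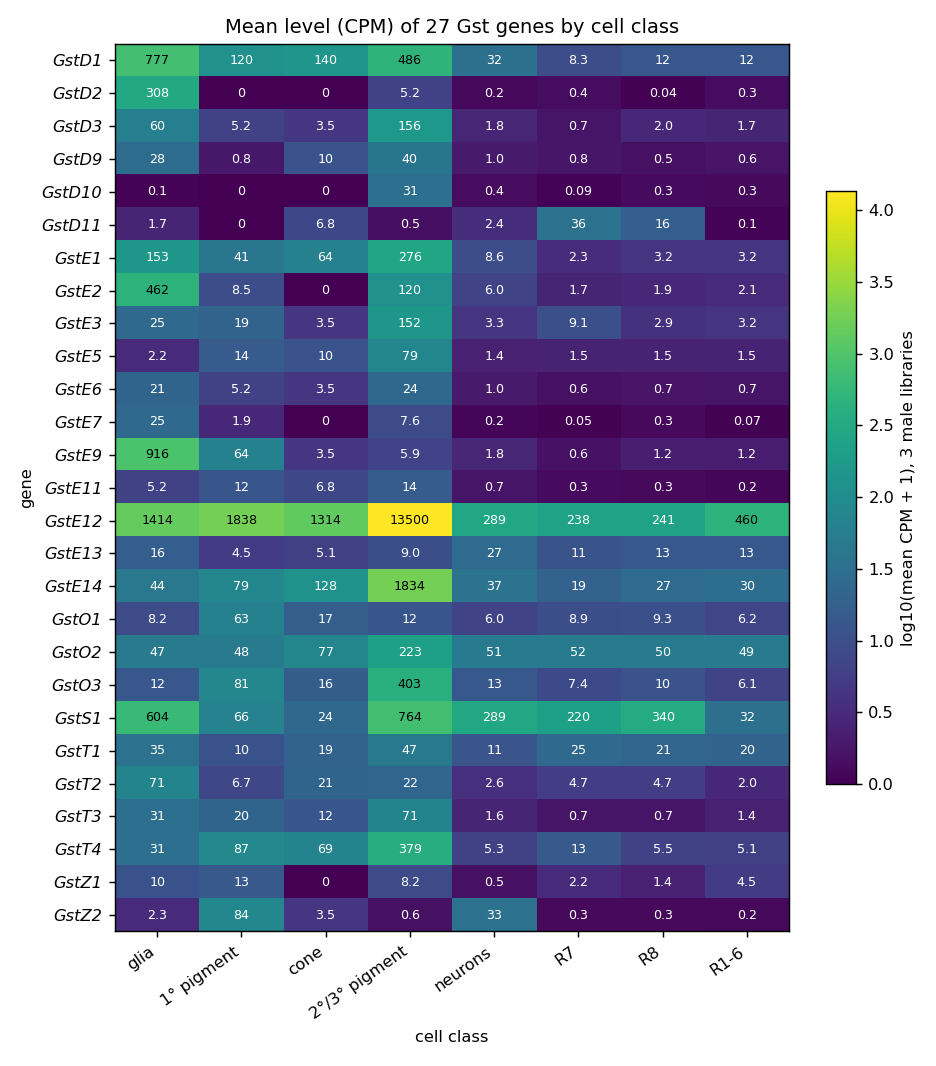
Mean CPM over the 3 male libraries (number in each cell, colour on a log10 scale) of the 27 tested *Gst* genes, in rows, across the 8 cell classes, in columns. *GstE12* in 2°/3° (secondary and tertiary) pigment cells, at 13500 CPM, is the highest value, and *GstD11*, *GstE9* and *GstZ2* peak outside that class.

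Of the 35 genes, 27 had enough UMIs for a test between classes. The other 8 were *GstD4* to *GstD8*, *GstE4*, *GstE8* and *GstE10*. *GstD7* had no UMI in any library, and 6 genes had under 20 UMIs in all. *GstE8* had 147 UMIs and reached 3.72 CPM on average in its highest class, glia. By the mean over males, 16 of the 27 were highest in secondary and tertiary pigment cells, 6 in glia, 3 in primary pigment cells, *GstD11* in R7 and *GstE13* in neurons. The same placing of all tested genes is not given here, so these counts have no background. *GstS1* is among the 16 through the 1-day library. Glia were above pigment cells at 3 days (587.3 against 559.0 CPM) and at 7 days (466.7 against 322.3 CPM). 16 genes reached 50 CPM in some class in every male library that had it.

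Class differences were tested on UMI sums per class and library with edgeR's quasi-likelihood test, with the 3 male libraries as replicates and as blocks. A gene was called when its Benjamini-Hochberg adjusted p over all 7698 tested genes was under 0.05 and its change more than 2-fold. The replicates differ in age, so the spread between them includes age and preparation. Folds from the fit are scaled by TMM, a correction for differences in RNA composition, and so differ from ratios of the CPM values. The SE of a fold is no output of the fit. It is the log2 change divided by the t value that belongs to its p-value.

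Secondary and tertiary pigment cells, which sheathe each ommatidium and hold the screening pigments, were first set against R1-6, the outer photoreceptors. 22 of 27 *Gst* genes were higher in the pigment cells and 0 were lower, while 27.5% of all tested genes were called higher and 24.9% lower. With DESeq2 size factors in place of TMM these background shares were 33.6% and 18.4%. The median log2 change was 4.68 over the *Gst* genes and −0.03 over all genes. All 11 tested epsilon genes but *GstE13* were higher, as were all 6 tested delta genes, *GstO2*, *GstO3*, *GstS1*, *GstT2*, *GstT3* and *GstT4*. The 5 genes not called were *GstE13*, *GstO1*, *GstT1*, *GstZ1* and *GstZ2*.

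*GstE12* made up most of the pigment cell message. It stood at 11000 CPM in female pigment cells and at 11790, 15390 and 13310 CPM in 1-, 3- and 7-day male pigment cells. In R1-6 it stood at 364.9 CPM in females and at 382.7, 438.3 and 558.6 CPM in males. The groups were far apart in every library, and the change was large (log2 4.32 ± 0.30 SE, adjusted p = 1.11e-11, edgeR). *GstE14* was the next gene of the class, at 2785 CPM in female pigment cells and 2372, 1813 and 1317 CPM in male pigment cells. Its R1-6 levels were 40.5 CPM in females and 65.2, 12.4 and 12.4 CPM in males, and the fold was 57.7 (log2 5.85 ± 0.36 SE, adjusted p = 1.82e-12, edgeR).

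The largest change was that of *GstD10*, at 27.9 CPM in female pigment cells and 15.8, 21.1 and 56.7 CPM in male pigment cells. It was at 0.36 CPM in female R1-6 and at 0.36, 0 and 0.45 CPM in male R1-6 (log2 6.02 ± 0.52 SE, adjusted p = 3.43e-09, edgeR). *GstE1* stood at 450.8 CPM in female pigment cells and 273.7, 381.6 and 171.2 CPM in male ones, against 1.36 to 6.07 CPM in R1-6 over the 4 libraries (log2 5.83 ± 0.44 SE). *GstD3* stood at 260.7 CPM in female pigment cells and 120.2, 167.8 and 179.7 CPM in male ones, against 0.91 to 3.25 CPM in R1-6 (log2 5.82 ± 0.41 SE). *GstT4*, a theta gene on the X, stood at 385.1 CPM in female pigment cells and 342.9, 409.5 and 383.6 CPM in male ones, with the least spread of these genes. Its R1-6 levels were 2.90 to 8.39 CPM (log2 5.80 ± 0.58 SE). For all of these genes the pigment and R1-6 values did not overlap.

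The other genes at 50 CPM or more in pigment cells followed the same order. *GstD1*, a delta enzyme known to break down DDT, averaged 486 ± 156 CPM in pigment cells and 12.2 ± 0.27 CPM in R1-6 (SD, n = 3 male libraries). *GstO3* averaged 403 ± 158 CPM in pigment cells and 6.12 ± 1.54 CPM in R1-6. *GstE2* averaged 120 ± 42.5 CPM, *GstE3* 152 ± 106 CPM and *GstT3* 71.4 ± 28.7 CPM in pigment cells, and none of them passed 6.45 CPM in R1-6. All were called. *GstO2* differed less, at 223 ± 54.7 CPM in pigment cells against 34.2 to 56.5 CPM in R1-6 over the 4 libraries (log2 1.62 ± 0.17 SE, adjusted p = 1.61e-08). Its neighbour on the other strand, *se*, stood at 7101, 2924 and 2325 CPM in male pigment cells. *GstD11* was called higher at values close to 0, with 1.08, 0.31 and 0 CPM in male pigment cells against 0.25, 0.05 and 0 CPM in male R1-6, and these overlap.

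The 5 genes not called were spread more evenly. *GstE13* averaged 8.96 ± 3.94 CPM in pigment cells and 12.6 ± 5.49 CPM in R1-6, and was lower in pigment cells in all 3 male libraries without passing the fold limit (log2 −0.98 ± 0.32 SE, adjusted p = 0.0083, edgeR). *GstT1* averaged 46.6 ± 4.14 CPM in pigment cells and 19.6 ± 6.73 CPM in R1-6, under the fold limit after scaling (log2 0.68 ± 0.23 SE, adjusted p = 0.0114, edgeR). *GstO1* averaged 11.9 ± 2.85 CPM in pigment cells and 6.21 ± 3.13 CPM in R1-6, and *GstZ1* 8.17 ± 2.38 and 4.52 ± 1.91 CPM, and for both the groups overlapped.

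**Figure D2:**
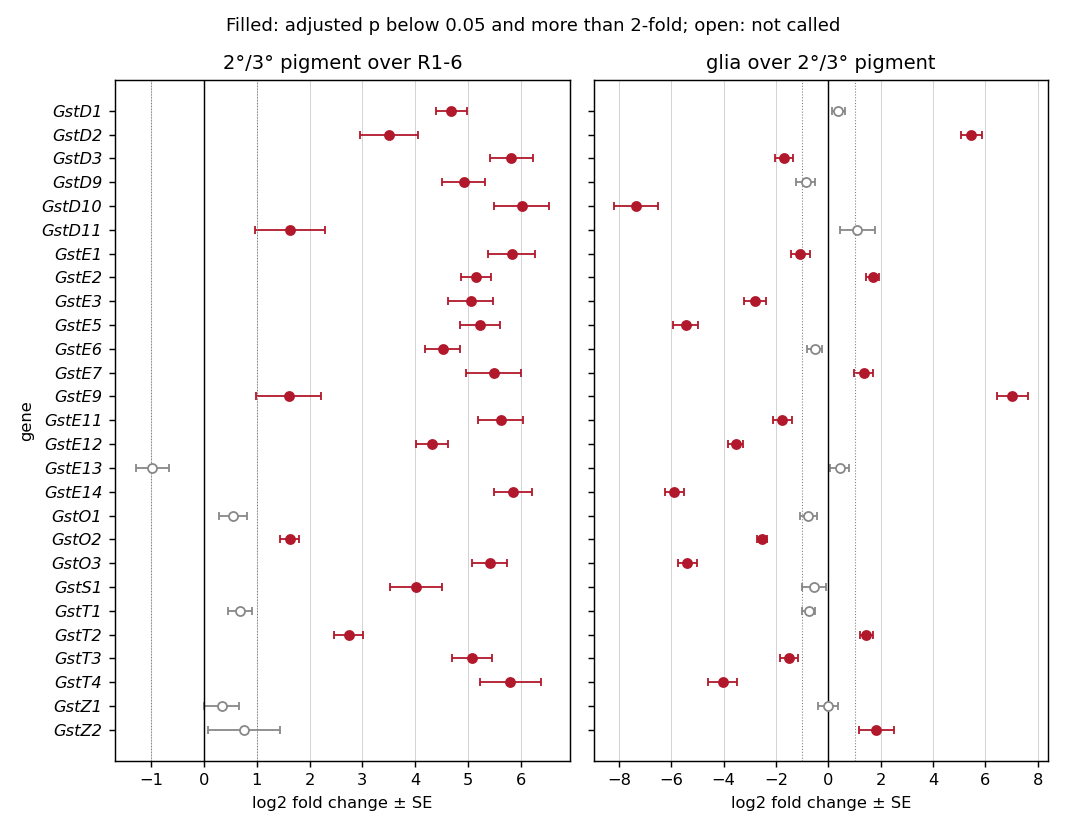
Fitted log2 fold change (point) with a standard error derived from its p-value (bar) of the 27 tested *Gst* genes in 2 contrasts over the 3 male libraries, with dotted lines at 2-fold. In pigment cells over R1-6, 22 genes are filled and all lie to the right; in glia over pigment cells, 6 filled genes lie to the right and 12 to the left.

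Droplet libraries carry free RNA, so the R1-6 levels were set beside those of 6 pigment cell markers (*Pdh*, *fabp*, *rdhB*, *CG6870*, *Pu* and *w*). In R1-6 these markers stood at 0.99% to 1.42% of their pigment cell level in females and at 2.19% to 2.67%, 0.39% to 1.99% and 0.88% to 1.49% in 1-, 3- and 7-day males. *GstE14* stood at 1.46% in females and at 2.75%, 0.69% and 0.94% in males, within the range of the markers or just above it. *GstE1*, *GstD3*, *GstT3*, *GstT4* and *GstO3* lay between 0.50% and 3.19%. *GstE12* was above all 6 markers in every library, at 3.32% in females and 3.25%, 2.85% and 4.19% in males. *GstS1* was above them as well, by a ratio to its pigment cell level of 3.99% in 1-day and 4.03% in 7-day males, and *GstD1* at 2.29% in females and 3.67%, 2.53% and 1.88% in males. Well above them were *GstT2* at 7.00% to 15.5%, *GstO2* at 16.8% to 23.4%, *GstT1* at 24.1% to 59.8%, *GstO1* at 30.1% to 83.7% and *GstE13* at 112% to 172%. What part of the R1-6 levels near the markers is free RNA was not tested.

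**Figure D3:**
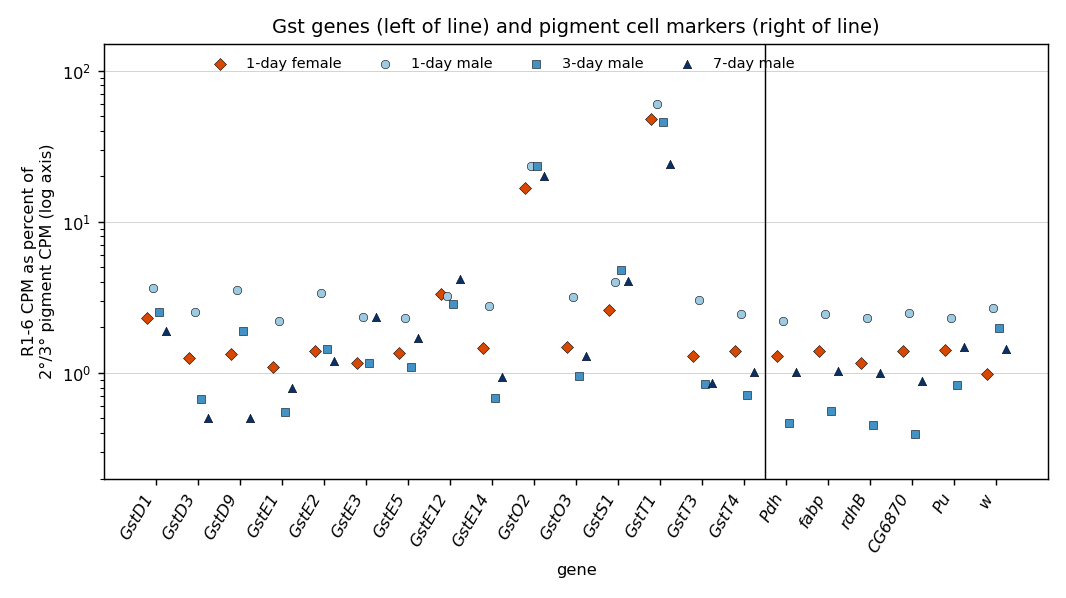
Level in R1-6 as a percent of the level in 2°/3° pigment cells (log axis) for the *Gst* genes at 20 CPM or more in male pigment cells and for 6 pigment cell markers, with 1 point per library. *GstD1*, *GstE12*, *GstS1*, *GstO2* and *GstT1* lie above all 6 markers in each library, *GstO2* (16.8% to 23.4%) and *GstT1* (24.1% to 59.8%) by the most.

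Photoreceptors were then compared with each other. R7 and R8, the inner photoreceptors used for colour vision, differed from R1-6 in 4 *Gst* genes, 2 higher and 2 lower, against 4.01% of all genes called higher and 2.26% lower (4.68% and 1.45% with DESeq2 size factors). *GstD11* was at 54.2 CPM in R7 of females and 36.3, 45.6 and 24.8 CPM in R7 of 1-, 3- and 7-day males. In R8 it was at 18.6 CPM in females and 20.5, 17.7 and 11.1 CPM in males. R1-6 held 16 UMIs of it in females and 9, 1 and 0 UMIs in males, or at most 0.53 CPM. The fitted log2 change was 6.99 ± 0.40 SE (adjusted p = 3.77e-11, edgeR) and rests on those few R1-6 UMIs. A *GstD11* UMI was seen in 40.8% of R7 cells and 0.58% of R1-6 cells in females, at median depths of 15883 and 11260.5 UMIs. In 1-day males it was seen in 25.7% and 0.17%, at 10281 and 7097.5 UMIs.

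*GstS1* was the second gene higher in the inner photoreceptors. It stood at 279 CPM in R7 of females and 153.2, 292.3 and 215 CPM in R7 of males, and at 480.3 CPM in R8 of females and 301.2, 360.9 and 359.1 CPM in R8 of males. R1-6 held 37.6 CPM in females and 56.4, 26.8 and 13.0 CPM in males, below every R7 and R8 value (log2 2.90 ± 0.45 SE, adjusted p = 5.55e-05, edgeR). *GstE12* was lower in R7 and R8, where it averaged 240 ± 21.6 CPM against 460 ± 89.9 CPM in R1-6 of males (log2 −1.25 ± 0.22 SE, adjusted p = 0.000277, edgeR). The 6 pigment markers were lower as well in 3 of the libraries. As a percent of their pigment cell level they stood at 0.16% to 0.37% in R7 and 0.39% to 0.63% in R8 of females, against 0.99% to 1.42% in R1-6. In 1-day males they stood at 1.18% to 1.90% in R7 and 1.32% to 2.11% in R8, against 2.19% to 2.67% in R1-6. In 7-day males all 6 were lower in R7 and all but *w* in R8, while in 3-day males all 6 were higher in R8 than in R1-6. The part of this in the *GstE12* difference was not tested. *GstZ1*, a zeta gene, was lower at a low level, with 1.79 ± 0.41 CPM in R7 and R8 against 4.52 ± 1.91 CPM in R1-6 (log2 −1.47 ± 0.33 SE, adjusted p = 0.00339, edgeR).

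R7 was set against R8, and 1 *Gst* gene of 27 was called, against 0.896% of all genes higher in R7 and 0.883% lower. The gene was *GstD11*, higher in R7 in all 4 libraries at 35.5 ± 10.41 CPM in R7 and 16.4 ± 4.83 CPM in R8 of males (log2 1.06 ± 0.27 SE, adjusted p = 0.0417, edgeR). The call was lost under 8 of the alternatives tried, among them the fits without the 3-day or the 7-day library. In females and in 1-day and 7-day males, cells led by *Skeletor*, *hth* and *Rh3* formed an unnamed cluster outside R7. In 3-day males no such cluster stood apart, and an R7 cluster of 261 cells had *Rh3* and *Skeletor* among its leading genes. The part of this in the *GstD11* values was not tested. *GstS1* was higher in R8 than in R7 in every library, but was not called (log2 −0.67 for R7 over R8).

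R7 and R8 cells were further split by rhodopsin, into yellow (*Rh4* in R7, *Rh6* in R8) and pale (*Rh3* in R7, *Rh5* in R8) cells. None of the 13 *Gst* genes with enough UMIs was called in either pair, where 1.01% of all genes were called in R7 and 0.677% in R8 in either direction. By unadjusted p under 0.05, 6 of the 13 differed in R7, beside 11.4% of all genes, and 2 in R8, beside 7.18%. *GstD11* in R7 came close to the 2-fold limit. It stood at 92.3 CPM in yellow R7 of females and 45.2, 63.4 and 33.8 CPM in yellow R7 of males. Pale R7 held 38.0 CPM in females and 26.7, 31.1 and 8.25 CPM in males. Pale R7 of 3-day males draws on the R7 cluster with *Rh3* and *Skeletor* among its leading genes. Yellow was above pale in each library, by a log2 change of 0.99 ± 0.16 SE (adjusted p = 0.000573, edgeR), and it passed 2-fold under 5 of the alternatives, among them the fits without the 1-day or the 3-day library. In R8 the order was the other way round. Yellow R8 held 15.6 CPM in females and 19.2, 14.4 and 9.09 CPM in males, against 34.5 CPM in females and 28.3, 43.3 and 23.9 CPM in males in pale R8. This R8 difference rests on 17 or fewer pale UMIs in 2 of the libraries and did not pass (log2 −0.97, adjusted p = 0.155, edgeR). *GstE12* was also higher in yellow than in pale R7 under the fold limit (log2 0.71 ± 0.15 SE, adjusted p = 0.00989, edgeR).

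**Figure D4:**
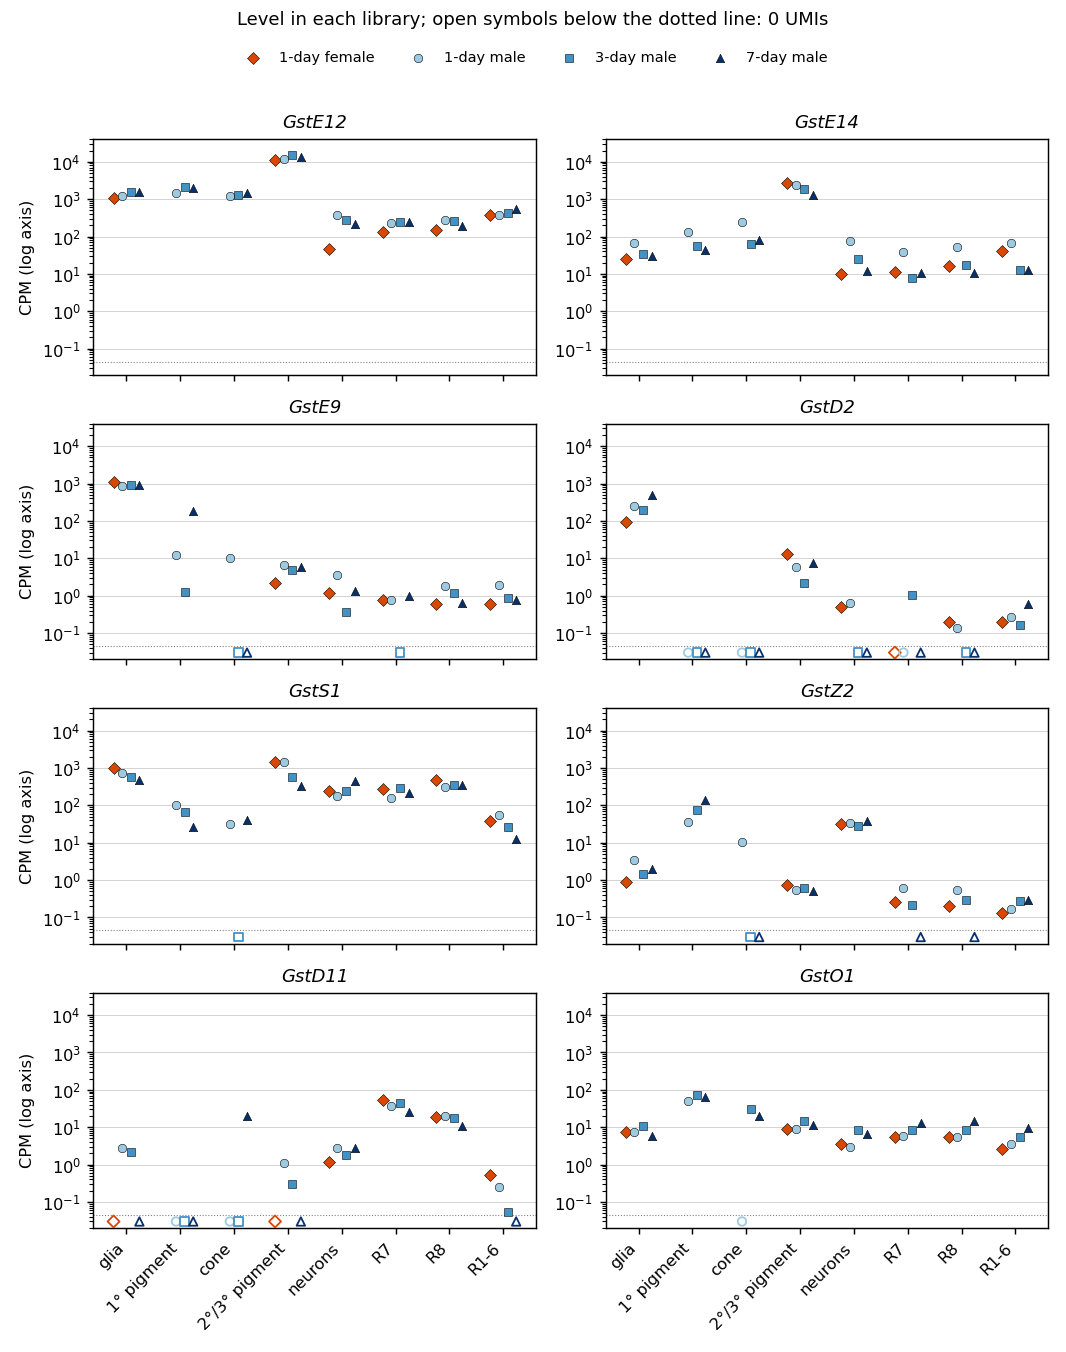
CPM on a log axis of 8 *Gst* genes in each cell class, with 1 symbol per library and open symbols below the dotted line where a class had 0 UMIs. *GstE12* and *GstE14* are highest in 2°/3° pigment cells, *GstE9* and *GstD2* in glia, *GstD11* in R7 and R8, *GstO1* in primary pigment cells and *GstZ2* in primary pigment cells and neurons.

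Neurons, which the study takes for lamina cells outside the eye proper, were set against the photoreceptors R7, R8 and R1-6 together. 1 *Gst* gene was higher and 6 were lower, with backgrounds of 25.9% and 15.5% (31% and 12% with DESeq2 size factors). As an alternative for free RNA, 5% of each class sum was taken off in the profile of all kept cells of its library. Free RNA itself was not measured. This gave 4 higher and 3 lower, with backgrounds of 30.9% and 13.9%, and 4 of these calls were among the 7. *GstZ2* stood at 32.2 CPM in female neurons and 33.1, 27.4 and 38.9 CPM in male neurons. In the photoreceptors it was at 0.62 CPM or less in every class and library (log2 5.55 ± 0.29 SE, adjusted p = 3.84e-14, edgeR). It was present in each of 11 neuron clusters of 1-day males, at 18.9 to 40.1 CPM. The lower genes were *GstZ1*, *GstT1*, *GstD11*, *GstO1*, *GstE3* and *GstT2*. *GstT1* averaged 11.2 ± 2.64 CPM in neurons and was higher in photoreceptors in all 3 male libraries (log2 −1.96 ± 0.23 SE, adjusted p = 1.01e-07, edgeR). *GstZ1* averaged 0.51 ± 0.45 CPM in neurons and 2.70 ± 0.80 CPM in photoreceptors (log2 −2.61). For *GstO1*, *GstE3* and *GstT2* the CPM values of the groups overlapped. With DESeq2 size factors *GstO1* was still called, and *GstE3* and *GstT2* were not. *GstS1* averaged 289 ± 145 CPM in neurons and 198 ± 28.3 CPM in photoreceptors, was not called, and varied between 31.6 and 457.3 CPM among the neuron clusters of 1-day males. *GstD11* was no longer called without the 1-day library (log2 −1.49). The summed level of 5 hemocyte markers in neurons was 327 CPM in females and 131 to 282 CPM in males, with 3 or 4 of the 5 at 0. In females and in 3-day and 7-day males the sum is *Pxn* alone. *Pxn* is also among the leading genes of a neuron cluster of 59 cells in 3-day males. The part of these markers in the neuron values was not tested. A neuron cluster of each male library (25, 63 and 54 cells) had *CG12655*, *fok* and *Tsp74F* among its leading genes, which also lead a pigment cell cluster of 1-day males. It held *GstE12* at 2965, 4402 and 3254 CPM at 1, 3 and 7 days. Without these clusters, a choice made after seeing the data, neuron *GstE12* stood at 345.6, 103.5 and 136.2 CPM in place of 371.1, 275.4 and 219.5 CPM. The same setting gave 1 *Gst* gene higher and 7 lower than in photoreceptors, with backgrounds of 24.1% and 16.2%.

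Glia, the support cells of the nervous system, were set against the secondary and tertiary pigment cells. 6 *Gst* genes were higher in glia and 12 were lower, with backgrounds of 22% and 15.3%. The epsilon gene *GstE9* was at 1108 CPM in female glia and 870.1, 942.5 and 935.3 CPM in male glia. In pigment cells it was at 2.23 CPM in females and 6.67, 4.95 and 6.03 CPM in males (log2 7.03 ± 0.59 SE, adjusted p = 5.87e-10, edgeR). *GstE12* stood at 1081 CPM in female glia and 1190, 1522 and 1531 CPM in male glia. *GstD2* was at 91.9 CPM in female glia and 245.2, 198.2 and 481.4 CPM in male glia, against 13.0 CPM in female pigment cells and 5.86, 2.17 and 7.53 CPM in male ones (log2 5.47 ± 0.39 SE, adjusted p = 4.17e-10, edgeR). *GstE2*, *GstT2*, *GstE7* and *GstZ2* were higher by log2 1.36 to 1.83.

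Within glia the 2 leading genes were uneven. In each library, 1 glia cluster, led by genes such as *Ect3*, *CG14495* and *Idgf4*, held *GstE9* at 1620 CPM in females and 1483, 1370 and 1805 CPM in males. No other glia cluster passed 159.9 CPM. The same clusters held *GstD2* at 132.4 CPM in females and 389.7, 274.9 and 737.4 CPM in males, while the other glia clusters held 6.73 to 414.6 CPM. *GstE2* lay at 311.8 to 391.1 CPM in the *GstE9*-rich clusters and at 239.4 to 837.2 CPM in the rest, and all but 1 of the rest were higher. These cluster levels are descriptions and were not tested. Over all glia, 4 fat body markers summed to 77.9 CPM in females and 157 to 254 CPM in males. In females and in 7-day males this fat body sum is *apolpp* alone, and in 1-day males it is *apolpp* and *Lsp2*. In 3-day males only *Lsp1gamma* was absent. The 5 hemocyte markers summed to 92.7 CPM in females and 33.4 to 131 CPM in males. The part of both marker lists in the glia levels was not tested.

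The genes lower in glia were mostly those that led in pigment cells. *GstE14* was at 24.7 CPM in female glia and 68.6, 33.2 and 29.5 CPM in male glia, against 2785 CPM and 1317 to 2372 CPM in female and male pigment cells (log2 −5.89 ± 0.37 SE, adjusted p = 4.65e-12, edgeR). *GstE5* fell by 5.45 and *GstO3* by 5.40 on the log2 scale, and *GstE12* by 3.54. *GstD10* had 1, 0 and 0 UMIs in male glia, against 175, 68 and 113 UMIs in male pigment cells. Its fitted log2 change of −7.35 (adjusted p = 3.89e-07, edgeR) depends on the prior count and is no bound. The 6 pigment markers stood at 2.17% to 19.9% of their pigment cell level in glia of 1-day males. *GstE14* was at 68.6 CPM in those glia and at 65.2 CPM in R1-6 of the same library.

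Set against neurons, glia were higher in 18 *Gst* genes and lower in 1, with backgrounds of 22.6% and 26.4%, and the median log2 change was 3.02 over the *Gst* genes and −0.17 over all genes. *GstD2* (log2 9.47), *GstE9* (8.93), *GstE7* (7.58), *GstE2* (6.51) and *GstD1* (4.92) changed most. *GstD1* stood at 464.3 CPM in female glia and 616.9, 644.1 and 1069 CPM in male glia, against 19.3 CPM in female neurons and 23.0, 26.0 and 47.1 CPM in male neurons (SE 0.30, adjusted p = 1.63e-12, edgeR). *GstE2* stood at 394.8 CPM in female glia and 425.3, 479 and 482.4 CPM in male glia, against 2.78 to 6.86 CPM in neurons (SE 0.31, adjusted p = 1.58e-13). The neuron side of the other 3 is thin, with 7, 0 and 0 UMIs of *GstD2*, 39, 1 and 3 of *GstE9*, and 1, 0 and 1 of *GstE7* in males. The gene lower in glia was *GstZ2*, at 0.87 CPM in female glia and 3.37, 1.47 and 1.97 CPM in male glia against 27.4 to 38.9 CPM in neurons (log2 −3.39 ± 0.40 SE, adjusted p = 1.16e-07, edgeR).

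Primary pigment cells, which border the cone cells at the top of each ommatidium, were set against the secondary and tertiary ones on 59 to 92 cells per male library. The R1-6 rhodopsin gene *ninaE* was uneven among them. At 1 and 7 days clusters of 68 and 42 of these cells held it at 21480 and 78983 CPM. The rest, 24 and 17 cells, held it at 955 and 6078 CPM. At 3 days clusters of 43 and 36 cells held it at 315 and 24905 CPM. The part of photoreceptor RNA in the primary pigment levels was not tested. 4 *Gst* genes were higher and 14 were lower, with backgrounds of 9.22% and 9.07%. *GstZ2* stood at 36.8, 74.9 and 140.4 CPM (15, 60 and 32 UMIs) in primary pigment cells of 1-, 3- and 7-day males, against 0.50 to 0.62 CPM in secondary and tertiary ones (log2 7.77 ± 0.45 SE, adjusted p = 5.37e-12, edgeR). *GstO1* stood at 51.6, 72.4 and 65.8 CPM in primary pigment cells, against 9.19, 14.9 and 11.6 CPM in secondary and tertiary ones (log2 3.14 ± 0.31 SE, adjusted p = 3.16e-08, edgeR). *GstZ1* was higher at 13.0 ± 1.75 CPM against 8.17 ± 2.38 CPM. *GstE9* was called higher because of the 7-day library, with 12.3, 1.25 and 179.9 CPM in primary against 6.67, 4.95 and 6.03 CPM in secondary and tertiary pigment cells. All 41 *GstE9* UMIs of the 7-day primary class came from 1 barcode. *GstE14* was lower, at 135.1, 57.4 and 43.9 CPM in primary pigment cells against 2372, 1813 and 1317 CPM (log2 −4.00 ± 0.36 SE, adjusted p = 5.98e-09, edgeR). *GstD3* and *GstD9* were lower by 4.00 and 4.85 on the log2 scale, *GstD9* with 1, 0 and 0 UMIs in primary pigment cells. *GstD10* had 0 UMIs in primary pigment cells of every male library, which allows up to 7.37, 3.74 and 13.2 CPM by counting error, and stood at 15.8, 21.1 and 56.7 CPM in secondary and tertiary ones.

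The *Gst* genes were set beside 36 other genes of glutathione and peroxide metabolism, of which 31 were tested. 17 of these were higher and 2 lower in secondary and tertiary pigment cells over R1-6, beside the same 27.5% and 24.9% of all genes, with a median log2 change of 1.38. The largest were *se* (log2 5.82 ± 0.36 SE, adjusted p = 2.27e-12, edgeR), the superoxide dismutase gene *Sod3* (log2 5.48 ± 0.37 SE, adjusted p = 8.53e-12) and *Zw* (log2 5.45 ± 0.32 SE, adjusted p = 1.17e-12), which encodes the NADPH-making enzyme glucose-6-phosphate dehydrogenase. In glia over pigment cells 6 were higher and 8 lower, beside 22% and 15.3% of all genes, with a median of −0.49. There *CG4829* led the higher genes (log2 6.68 ± 0.56 SE, adjusted p = 1.79e-09, edgeR), and *se* (log2 −6.01 ± 0.37 SE, adjusted p = 3.86e-12) and *Zw* (adjusted p = 9.93e-11) led the lower ones.

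Ages were compared within males, with 1 library per age. Age and library cannot be told apart, there is no test, and intervals cover counting error only. Genes with at least 20 UMIs over both sums were counted when their ratio of 7-day to 1-day CPM passed 2-fold. The 1-day sums are deeper, as in neurons with 10914759 UMIs at 1 day and 2186920 at 7 days. A gene can so pass the minimum through the 1-day sum alone. In secondary and tertiary pigment cells 26 *Gst* genes had enough UMIs, 3 were higher and 4 lower at 7 days, and the backgrounds were 9.36% and 11.9% (6.61% and 14.6% with TMM factors). *GstS1* stood at 1411, 559 and 322.3 CPM at 1, 3 and 7 days, a ratio of 0.228 (95% interval 0.211 to 0.247). *GstE3* stood at 274, 105.5 and 77.3 CPM (ratio 0.282, 0.238 to 0.332) and *GstE5* at 133.9, 49.2 and 53.7 CPM (ratio 0.401, 0.327 to 0.488). *GstE13* had only 10 UMIs at 7 days (ratio 0.390, 0.183 to 0.738). *GstD10* stood at 15.8, 21.1 and 56.7 CPM (ratio 3.60, 2.81 to 4.58). *GstO3* was higher by a ratio of 2.34 and *GstE2* by 2.06. *GstE12*, at 11790, 15390 and 13310 CPM, did not pass.

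The single pigment clusters kept these orders. *GstS1* lay at 897 to 1532 CPM in the 4 pigment clusters of 1-day males, 480.7 and 627.8 CPM in the 2 of 3-day males, and 169.9 to 469.8 CPM in the 3 of 7-day males. *GstD10* lay at 8.63 to 17.0, 17.9 to 23.8 and 41.6 to 59.3 CPM in the same clusters. In males of 1 and 3 days, however, an unnamed cluster with pigment markers and *IM33* and *Optix* among its leading genes was left out of the class. It held *GstS1* at 11950 and 7390 CPM and *GstD10* at 38.3 and 44.1 CPM, above every pigment cluster of its library. At 7 days a cluster of 510 cells with *IM33* among its leading genes is within the class, with *GstD10* at 59.3 CPM. With the unnamed *IM33* and *Optix* clusters added to the class, a choice made after seeing the data, *GstS1* stood at 2191, 878.9 and 322.3 CPM and *GstD10* at 17.4, 22.1 and 56.7 CPM, and 3 genes were higher and 5 lower at 7 days. The share of all genes under that setting is not given here. With classes by marker score *GstS1* was also past 2-fold lower. The summed level of 4 fat body markers also differed, at 1.00 CPM in 7-day and 149 CPM in 1-day pigment cells, with 2 of the 4 at 0 in 7-day males and none in 1-day males. This sum was higher in 1-day than in 7-day males in every other class too. It stood at 49.6 against 0.755 CPM in R1-6 and at 81.4 against 2.74 CPM in neurons. At 7 days the sum in R1-6 and in neurons is *apolpp* alone. The part of these markers in the ratios was not tested.

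**Figure D5:**
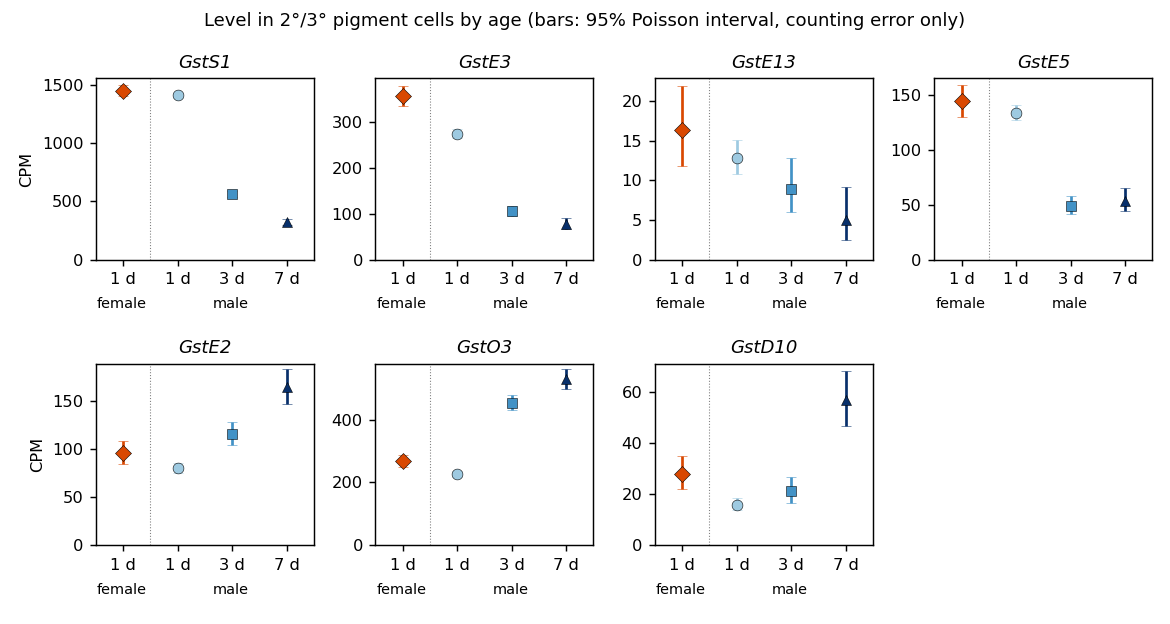
CPM in 2°/3° pigment cells of the 7 *Gst* genes past 2-fold between 7-day and 1-day males, with the 1-day female library left of the dotted line and bars for the 95% Poisson interval. *GstS1*, *GstE3*, *GstE13* and *GstE5* are lower at 7 days, and *GstE2*, *GstO3* and *GstD10* are higher.

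In the other classes the genes lower at 7 days were mostly those that are high in pigment cells, and the pigment markers were lower as well. *GstE12*, the highest gene in pigment cells, did not fall in R1-6. It stood there at 3.25% of its pigment cell level in 1-day and 4.19% in 7-day males. In R1-6, 21 *Gst* genes had enough UMIs, 2 were higher (*GstO1* and *GstZ1*) and 12 lower, with backgrounds of 3.62% and 16.8% (6.26% and 11.6% with TMM factors). *GstE14* stood at 65.2, 12.4 and 12.4 CPM (ratio 0.190, 0.151 to 0.237), *GstS1* at 56.4, 26.8 and 13.0 CPM (ratio 0.231) and *GstE1* at 6.07, 2.10 and 1.36 CPM (ratio 0.224). *GstT3* and *GstD9* fell on 3 and 2 UMIs at 7 days. The 6 pigment markers had 7-day to 1-day ratios of 0.122 to 0.515 in the same R1-6 sums, 5 of them below 0.5, and their part in these counts was not tested. In R7 and R8, 22 had enough UMIs, 2 were higher and 4 lower, with backgrounds of 4.88% and 15.9%. *GstO1* (ratio 2.37, 1.66 to 3.33) and *GstT2* (2.09, 1.27 to 3.34) were higher, and *GstE14* (0.247), *GstE1* (0.235), *GstT3* (0.218) and *GstE5* were lower, with pigment marker ratios of 0.136 to 0.608. *GstO1* was the gene higher at 7 days in both photoreceptor sums, and stood at 3.57, 5.38 and 9.67 CPM in R1-6.

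In neurons 20 had enough UMIs, 3 were higher (*GstS1*, *GstD1* and *GstO1*) and 7 lower, with backgrounds of 5.89% and 12.9%. *GstS1* stood at 175, 239.4 and 451.3 CPM (ratio 2.58, 2.39 to 2.79). It differed between neuron clusters, at 31.6 to 457.3 CPM at 1 day and 0 to 1084 CPM at 7 days, and the clusters took different shares of the neurons. A cluster led by *Pvf3* and *jdp* held 224 of 1905 neurons at 1 day and 131 of 624 at 7 days, with *GstS1* at 122 and 422.9 CPM. The part of this mix in the ratio was not tested. *GstE14* stood at 74.0, 24.9 and 11.9 CPM (ratio 0.161, 0.104 to 0.237), and *GstE3*, *GstE5*, *GstT4*, *GstT3*, *GstE9* and *GstT2* had 5 or fewer UMIs at 7 days. These genes passed the minimum mainly through the 1-day sum, so the count of lower genes depends on the minimum and on depth. All 6 pigment markers were lower there too, with ratios of 0.0652 to 0.388, and their part was not tested. Without the clusters led by *CG12655* and *fok*, 2 genes were higher and 11 lower at 7 days, and the share of all genes under this setting is not given here. In glia 23 had enough UMIs, 2 were higher and 2 lower, with backgrounds of 3.22% and 15.8% (5.4% and 12% with TMM factors). *GstT4* was at 78.1, 8.84 and 6.88 CPM (ratio 0.0881, 0.0351 to 0.184). Its UMIs in 1-day males came mostly from 1 of the 3 glia clusters, at 228.6 CPM against 14.5 and 22.5 CPM in the others. *GstD9* (ratio 2.82, 1.83 to 4.33) and *GstO3* (2.06) were higher and *GstE14* (0.430) lower.

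Females were compared with males at 1 day, again with 1 library each, so that sex and library cannot be told apart. In secondary and tertiary pigment cells 26 *Gst* genes had enough UMIs, 3 were higher in females and 1 lower, with backgrounds of 3.05% and 11.7%. *GstD3* stood at 260.7 CPM in females and 120.2 CPM in males (ratio 2.17, 1.98 to 2.38), *GstD2* at 13.0 and 5.86 CPM (2.22, 1.43 to 3.40) and *GstE11* at 20.4 and 9.82 CPM (2.08, 1.48 to 2.90). *GstE9* stood at 2.23 and 6.67 CPM (0.334). The female class rests on 378 cells, while 2 unnamed female clusters with all 9 pigment markers high held 325 and 250 cells. With classes by marker score 1 *Gst* gene passed, and *GstD3* (log2 0.45), *GstE11* (0.46) and *GstD2* (0.18) did not, while *GstE9* was higher in females (0.85). With the unnamed *IM33* and *Optix* cluster added in both sexes, none of the 4 passed and *GstT3* alone did, at 50.7 CPM in females and 110.6 CPM in males. The shares of all genes under both settings are not given here. In R1-6, 23 had enough UMIs, with 1 higher (*GstD11*, on 16 UMIs in females and 9 in males) and 4 lower (*GstT3*, *GstE9*, *GstD9* and *GstE2*), and backgrounds of 1.25% and 14.8% (2.47% and 7.93% with TMM factors). With classes by marker score 0 were higher and 12 lower in R1-6, and the share of all genes under this setting is not given here. The 6 pigment markers had ratios of 0.495 to 0.706 in R1-6, and their part was not tested. In R7 and R8, 22 had enough UMIs, 0 were higher and 6 lower (*GstT3*, *GstE14*, *GstE6*, *GstE1*, *GstE5* and *GstD9*), with backgrounds of 1.88% and 11.2%. All 6 pigment markers were lower in these cells of females, with ratios of 0.217 to 0.347.

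In neurons 20 had enough UMIs, 0 were higher in females and 11 lower, with backgrounds of 1.29% and 12.6%. *GstE12* stood at 45.2 CPM in females and 371.1 CPM in males (ratio 0.122, 0.107 to 0.138), or 345.6 CPM in males without the cluster led by *CG12655* and *fok*, and *GstE14* at 9.65 and 74.0 CPM (0.130). *GstT4* stood at 1.96 and 10.7 CPM, *GstT3* had 1 UMI in females and 36 in males, and *GstE5* had 0 UMIs in females, which allows up to 0.49 CPM, and 40 in males. *GstT3* and *GstE5* passed the minimum through the male sum alone. The 6 pigment markers had ratios of 0.0503 to 0.132 in the same neuron sums, and their part was not tested. In glia 24 had enough UMIs, 0 were higher and 3 lower, with backgrounds of 3.41% and 16.4% (5.69% and 12.2% with TMM factors). These were *GstD2* at 91.9 CPM in females and 245.2 CPM in males (0.375, 0.328 to 0.427), *GstE14* at 24.7 and 68.6 CPM (0.360) and *GstO3* at 2.62 and 8.57 CPM (0.305), with pigment marker ratios of 0.264 to 0.997. Male glia include a cluster of 150 cells with *Obp44a*, *e* and *Cyp4g15* among its leading genes. The female cluster of 130 cells with these genes was left out as mixed. Another 365 female cells, led by *Obp44a*, were unnamed. The part of this in the glia ratios was not tested.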

How the data were processed

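The authors dissociated adult eyes, made 3′ single-cell libraries and deposited UMI counts per gene and barcode, raw and whole, with Cell Ranger 6.0.1 and dm6 named in the submitters' processing notes. The clustering, sums and tests below were made from those deposited counts. Barcodes were kept with at least 200 genes and upper limits on genes and mitochondrial share per library after the study's methods. Cells were clustered per library with Seurat 5.3.0 and sctransform 0.4.2 (50 components, resolution 0.8) without the *Gst* genes, and clusters were named from markers. Cells with the highest scrublet scores, at 0.8% per 1000 cells, were kept and were removed as an alternative.

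UMI sums per class and library were tested with edgeR 4.0.16 (TMM, filterByExpr, quasi-likelihood, library as a block, 3 male libraries) in R 4.3.3. Class sums of 1 library come from the same dissociation, which is the pairing. R7 and R8 cells were yellow or pale with at least 5 UMIs and 70% of the 2 rhodopsins. Ages and sexes had 1 library each and no test, with exact Poisson intervals at 95%, exact conditional intervals of ratios, and 3 counts as the limit for 0 UMIs. The labels give no separate cultures, so the spread is that between these libraries. On simulated data for pigment cells over R1-6 (6985 genes), 46 of 50 genes raised 4-fold and 7 of 46 raised 2-fold were called. Unchanged genes had the same mean share in all classes and the spread was fixed, unlike in the real sums. A 2-fold change lies at the limit of a call. These shares are therefore not the power of the tests above.

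The genes, lists and comparisons were chosen with earlier results of these data known. Named genes were those at 50 CPM or more in a class in every male library, and in each comparison the 5 called or past-limit genes with the largest change; other names were added after their values were seen. DESeq2 1.42.0 served as an alternative. Leaving out neuron clusters led by *CG12655* and *fok*, and adding unnamed clusters led by *IM33* and *Optix* to the pigment class, were alternatives chosen after seeing the data.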

Additional observations from a re-analysis of the deposited data

Results flagged for a closer look

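Each comparison of ages or sexes rests on 1 library per group, so the differences below were not tested. *GstS1* was higher in 7-day than in 1-day neurons of males (ratio 2.58) and lower in 7-day pigment cells (ratio 0.228), with intervals on opposite sides of 1. The neuron clusters differ in *GstS1* (0 to 1084 CPM at 7 days) and in their share of the neurons at each age, and the part of this was not tested. *GstD2* was higher in females than in males in secondary and tertiary pigment cells (ratio 2.22) and lower in females in glia (ratio 0.375). With the unnamed *IM33* and *Optix* clusters added to the pigment class, a choice made after seeing the data, *GstD2* no longer passed 2-fold there. The glia classes of females and males also hold different clusters, and the part of this was not tested.

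Some cells outside the 8 classes held *Gst* genes above any class of their library. An unnamed cluster of 380 cells in 1-day males, with *Cpr62Bb*, *IM33*, *Phk-3* and *Optix* among its leading genes, held *GstS1* at 11950 CPM and *GstD10* at 38.3 CPM, against 1411 and 15.8 CPM in pigment cells. A similar cluster of 82 cells in 3-day males held *GstS1* at 7390 CPM, against 587.3 CPM in glia, and *GstD9* at 138.6 CPM, against 28.5 CPM in pigment cells. In an unnamed female cluster of 325 cells with like leading genes *GstS1* stood at 2502 CPM.

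*GstD11* stood at 205.0 CPM in an unnamed cluster of 33 female cells, against 54.2 CPM in R7 of females, and at 121.4 CPM in a cluster of 56 cells in 1-day males, against 36.3 CPM in R7. Both clusters are led by *Skeletor*, *hth* and *Rh3*. A cluster of 28 cells in 7-day males with the same genes in front held 76.2 CPM, against 24.8 CPM in R7. In 3-day males no such cluster stood apart, and *Skeletor* was among the leading genes of an R7 cluster.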

How the results depend on the processing

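Of 227 alternative counts of called genes, 186 stayed within 1.5 times the main count and 41 did not. DESeq2 size factors moved the median of all genes by 0.365 (log2) in pigment cells over R1-6 and by 0.227 in neurons over photoreceptors, and TMM factors over 2 sums by up to 0.314; changes are relative to that shift. R7 and R8 over R1-6 gave 7 calls with the female library as another block, beside 4.36% of all genes higher and 4.17% lower. R7 over R8 gave 0 calls with the DESeq2 Wald test, no library block, *Gst* genes kept in the clustering, 5% of each sum taken off in the profile of all kept cells, or doublets removed. It gave 0 to 3 without 1 library (0 without the 3-day or 7-day one, 3 without the 1-day one). Without the 1-day one, 0.971% of all genes were called higher and 0.758% lower. Neurons over photoreceptors gave 11 with no fold limit, beside 37.4% of all genes higher and 27.7% lower. Yellow over pale R7 gave 1 call with DESeq2 size factors, the Wald test or the female library, 2 with no fold limit, and 0 to 1 without 1 library (1 without the 1-day or the 3-day one); yellow over pale R8 gave 0 to 1 (1 without the 3-day one). Without the replicate block the other pairs kept 20 calls in pigment cells over R1-6, 4 in R7 and R8 over R1-6, 6 in neurons, 17 in glia over pigment cells, 19 in glia over neurons and 15 in primary pigment cells. In that order, the shares of all genes called higher and lower were 26.0% and 24.0%, 2.95% and 0.909%, and 25.4% and 15.4%. For the last pairs they were 19.3% and 13.9%, 21.6% and 24.7%, and 7.31% and 7.04%.

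For 7-day over 1-day males, a 3-fold limit gave 8 genes in R1-6, 3 in R7 and R8, 3 in pigment cells, 5 in neurons and 1 in glia; a 1.5-fold limit gave 12 in R7 and R8, 17 in pigment cells and 11 in glia; at least 50 UMIs gave 5 in neurons. For females over males, a 1.5-fold limit gave 12 in R1-6, 11 in R7 and R8, 9 in pigment cells and 6 in glia; a 3-fold limit gave 3 in R1-6, 0 in pigment cells and 1 in glia; at least 50 UMIs gave 3 in R7 and R8 and 7 in neurons. Resolution 1.2 gave 3 and classes by marker score 12 in R1-6 and 1 in pigment cells, the unnamed *IM33* and *Optix* clusters added to the pigment cells (chosen after seeing the data) gave 1, doublets removed gave 2 in R7 and R8, and TMM factors 5 in glia. The shares of all genes under these settings are not given here. These counts so show only how far the *Gst* counts move.

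Of 936 alternative values of single genes 2 turned round. *GstE12* in yellow over pale R8 ranged from −0.34 to 0.033 (log2) without 1 library, 0.033 without the 1-day one, and *GstE9* in female over male pigment cells was 0.85 by marker score; the cause was not tested. Low UMI counts limit the sex and age ratios in neurons.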

Other observations

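*GstE4* was nearly absent from the eye, with 13 UMIs in 1-day males and 0 in 3-day and 7-day males. The female library had 166 UMIs, of which 158 (95.2%) came from 1 barcode with 4750 UMIs in all that did not pass the cell limits. *GstD8* had 9 UMIs in 1-day males, all in 1 neuron cluster of 64 cells.

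Apart from the clusters led by *CG12655* and *fok*, the neuron clusters of male libraries held *GstE12* at 113.1 to 963.7, 48.8 to 208.7 and 71.6 to 202.5 CPM at 1, 3 and 7 days, and those of females at 22.6 to 156.8 CPM. The *CG12655* and *fok* clusters had *fne*, a neuron gene, at 778.8, 525.7 and 668 CPM, and the pigment cell cluster of 123 cells in 1-day males with these leading genes held *GstE12* at 6963 CPM. These values of single clusters carry no test.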
